A study of Saccharomyces cerevisiae with 16 samples.

Results

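Mixed and control wine fermentations were compared at 187 h, the last sampling, on 4 of the 16 arrays of the series: 2 arrays titled mixed at 187 h and 2 titled control at 187 h. The yeast profiled was Saccharomyces cerevisiae Lalvin EC1118, an industrial wine strain, grown in a synthetic must at 22 °C in 500 ml reactors divided by a dialysis membrane, which lets small molecules pass and keeps cells apart. In the mixed fermentations the spoilage yeast Dekkera bruxellensis ZIM 701 was inoculated on the far side of the membrane at the start of the 8 days, and in the control fermentations the far side stayed sterile, so the groups differ in the neighbour and share strain, must and vessel type. Fermentations were run in duplicate, sampled at 22 h, 92 h, 144 h and 187 h, and the 187 h samples are labelled as decline of growth or autolytic phase. The labels leave unsaid whether arrays with 1 number share a vessel across times. No probe for D. bruxellensis is listed in the labels. The values describe S. cerevisiae probes, and in bulk RNA fewer cells carrying a transcript and less of it per cell cannot be told apart.

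At the end of a wine fermentation S. cerevisiae stops dividing as nitrogen, lipids or sugar run short and ethanol accumulates. Yeast that senses nutrient shortage is known to lower transcription of ribosomal protein genes and to raise autophagy, in which cytoplasm is delivered to the vacuole and degraded, before cell lysis releases cell contents into the wine. Diploid yeast short of nitrogen and fermentable sugar may enter meiosis, and cells short of oxygen and sterols express a family of small wall mannoproteins, the seripauperins, under anaerobic control.

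Some genes of the cytosolic ribosome (14 of 137), the mitochondrial ribosome (8 of 70), the citric acid cycle (3 of 18) and oxidative phosphorylation (4 of 37) were lower in the mixed fermentations at 187 h, where 2.49% of all genes tested were lower, and no member of these lists passed the test as higher. Each of these 4 counts of lower genes was 0 with spike-in scaling and in a fit of the 187 h arrays alone. Among the largest falls were the maltase gene MAL32, the nitric oxide dioxygenase gene YHB1 and the ribosome-associated Hsp70 genes SSB1 and SSB2, at 2.25-fold to 3.23-fold lower in mixed. Higher in mixed were the autophagy gene ATG8, the meiotic kinase gene IME2, the 4-aminobutyrate permease gene UGA4 and the sulfur gene MET28, at 1.67-fold to 2.77-fold. They do not stand for their lists. Called higher were 3 of 43 autophagy, 4 of 57 meiosis, 1 of 32 nitrogen-repressed and 2 of 25 sulfur genes, against 1.91% of all genes. The list medians were 0.02, 0.13, 0.20 and 0.04, and 1 autophagy and 1 sulfur gene were lower. All 24 seripauperin genes lay higher on both mixed arrays than on both control arrays, where 23.6% of all genes did so, although none passed the test. The members share sequence, so these are not 24 separate measurements.

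Of 6114 genes tested with limma, 269 differed at an adjusted p below 0.05, which is 4.4% of those tested. Of these 117 were higher in mixed (1.91%) and 152 were lower (2.49%). Differences are given as log2 mixed minus control, after each array was set relative to its 75th percentile, and the median over all genes was -0.05. The falls ran from -0.46 to -1.69 with a median of -0.66, and 18 exceeded 1 in size. The rises had a median of 0.85, and 44 exceeded 1. Each of the 269 had the same sign on both slides, which is part of what a small spread requires. The count rested on single arrays: without the first or the second control array limma called 2 and 1 genes, and without the first or the second mixed array it called 577 (174 higher, 403 lower) and 106 (98 higher, 8 lower). Scaled to array medians, 243 genes were called (158 higher, 85 lower), and with spike-in scaling 33 (27 higher, 6 lower), so the balance of rises and falls turned. A fit of the 4 arrays alone called 0 genes by limma, with 1159 at an unadjusted p below 0.05, against 1623 in the fit of all 16 arrays.

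**Figure D1:**
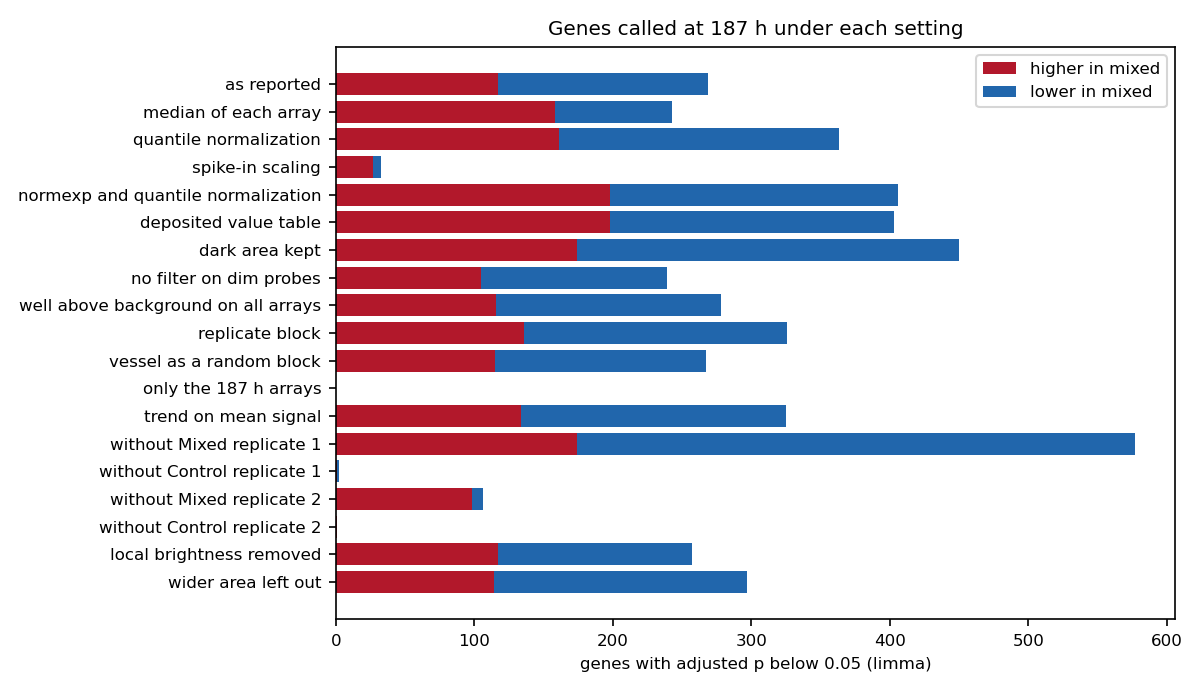
Number of genes called by limma at 187 h (horizontal axis, adjusted p below 0.05) under each setting, with genes higher in mixed in red and lower in mixed in blue. The count was 269 as reported, 577 without the first mixed array, and 2 and 1 without either control array.

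The 187 h arrays were among the dimmer arrays of the series. The 75th percentile of the processed signal was 1435 and 1900 on the mixed arrays and 2246 and 2661 on the control arrays, so the mixed arrays were the dimmer on both slides. Relative to the spike-in RNA, that percentile was -0.62 and 0.22 log2 in mixed and 0.17 and -0.45 in control, which is opposite on the slides. The first control array was dark in its centre, with a median signal of 566 there against 949 outside, and spots of that area were left out on every array. Replicate 1 of each group lay on slide 1 and replicate 2 on slide 2, with mixed in one row of each slide and control in the other, so kind and place on the slide cannot be told apart. With the slide (the replicate number) as a block limma called 326 genes, and its adjusted p is given beside each named gene whose call it changes. The growth phase label was checked with 8 stationary phase markers, whose median level went from -2.06 at 22 h to 0.78 at 187 h in control and from -1.86 to 0.86 in mixed. Their median change from 144 h to 187 h was 0.03 in control and -0.08 in mixed. The markers thus set 187 h apart from 22 h and cannot tell decline from stationary phase. The median of the cytosolic ribosomal protein genes went from 2.87 at 22 h to 1.23 in control and 0.80 in mixed. HSP12, a marker known for strong expression in stationary phase, was the exception at -4.34 and -4.27 in control, while SPG4 went from -6.72 to -0.80. None of the 8 markers differed between mixed and control past the test.

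**Figure D2:**
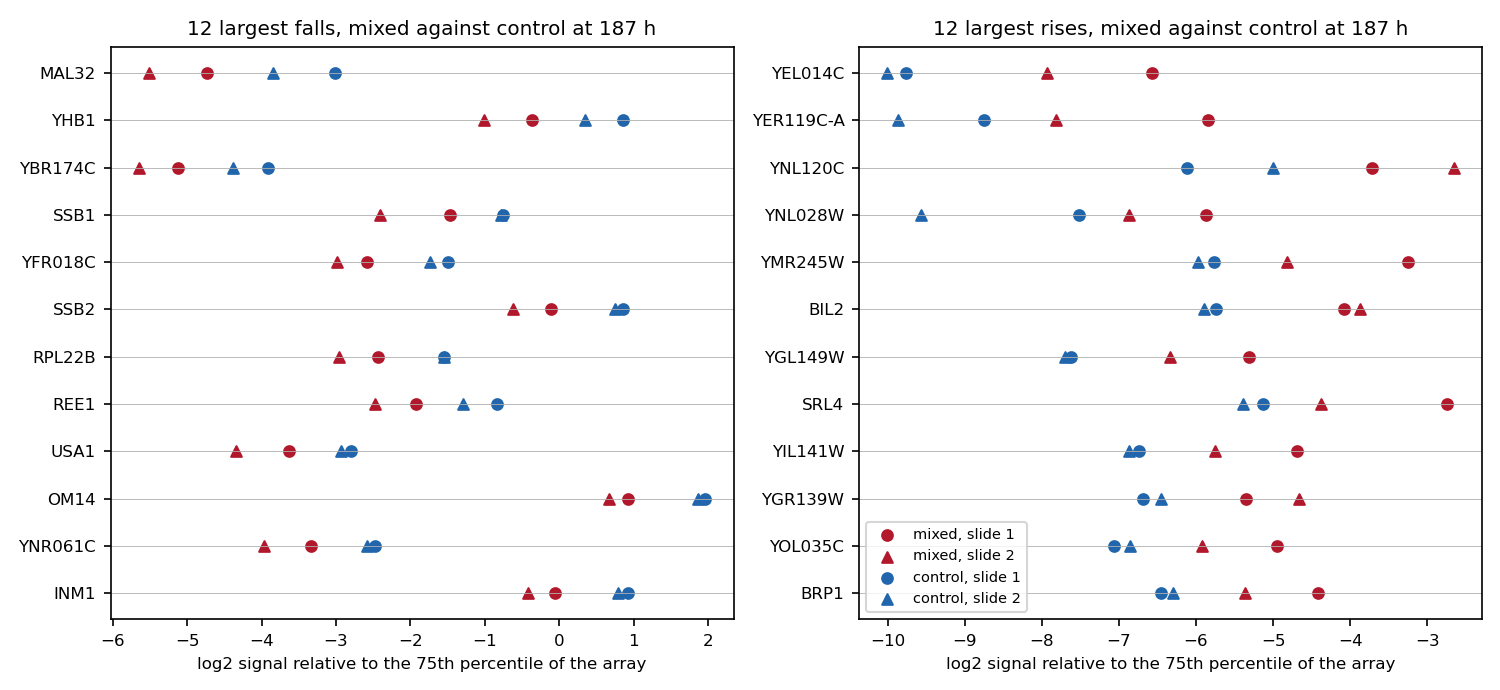
Level of the 12 largest falls (left) and the 12 largest rises (right) on each 187 h array, as log2 signal relative to the 75th percentile of the array. Red marks are mixed and blue marks control, with circles for slide 1 and triangles for slide 2; the 2 kinds do not overlap for any of these genes, and most of the rises lie below -4.

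Of 137 cytosolic ribosomal protein genes 14 were lower in mixed and 0 higher, 125 had a negative difference, and 96 lay lower on both mixed than on both control arrays, where 32.7% of all genes did so. Their median difference was -0.36, with -0.16 on slide 1 and -0.54 on slide 2. The share called lower over all genes was 2.49%. RPL22B, which encodes a large-subunit protein, read -2.43 and -2.96 in mixed and -1.55 and -1.55 in control, a difference of -1.14 ± 0.19 (SE, n = 2 per group, adjusted p = 0.0251 by limma). The mixed arrays lay below both control arrays. Its paralogue RPL22A did not pass, at 0.05 (adjusted p = 0.908). RPS4B read 0.57 and 0.27 against 1.31 and 1.30 (-0.88 ± 0.16, adjusted p = 0.0251), and RPP2B, a protein of the ribosomal stalk, 2.28 and 2.05 against 3.0 and 3.09 (-0.88 ± 0.15, adjusted p = 0.0251). In both genes the groups stood apart. Many ribosomal protein genes come in near-identical pairs, and where a probe may read both copies, which copy fell is uncertain. The RPL22A and RPL22B probes gave unlike values. The count of 14 was 5 when scaled to array medians, 26 with normexp and quantile normalization, 25 without the first mixed array, and 0 with spike-in scaling, without the second mixed array and without either control array.

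SSB1 and SSB2 encode Hsp70 chaperones that bind nascent chains on the ribosome. SSB2 read -0.11 and -0.62 in mixed against 0.85 and 0.76 in control (-1.17 ± 0.19, adjusted p = 0.0233), and SSB1 -1.47 and -2.41 against -0.76 and -0.78 (-1.18 ± 0.26, adjusted p = 0.0372). Neither gene's groups overlapped, and the genes are close copies whose probes may share signal. The partner chaperones did not pass, with SSZ1 at -0.22 and ZUO1 at -0.19 (adjusted p = 0.276 and 0.350), nor did the nascent chain complex genes EGD1 (-0.23), EGD2 (0.15) and BTT1 (-0.00). Among 37 translation factors 4 were lower and 0 higher, where 2.49% of all genes were lower, at a list median of -0.17. The elongation factor genes TEF2 and TEF1, near-identical copies of eEF1A, read 4.05 and 3.95 against 4.62 and 4.72 (-0.67 ± 0.13, adjusted p = 0.0290) and 4.22 and 3.88 against 4.70 and 4.64 (-0.62 ± 0.14, adjusted p = 0.0372). GCN3, a subunit of the nucleotide exchange factor eIF2B, was also lower (-0.73 ± 0.18, adjusted p = 0.0468). All 18 cytosolic tRNA synthetase genes had a negative difference, at a median of -0.37. On both mixed arrays 15 lay lower (32.7% of all genes did). Of these WRS1 for tryptophan (-0.56 ± 0.14) and SES1 for serine (-0.47 ± 0.12) passed (adjusted p = 0.0468 and 0.0495). Among genes that build ribosomes 2 passed: of 84 ribosome biogenesis genes 1 was lower, the box C/D snoRNP gene NOP56 (-0.84 ± 0.19, adjusted p = 0.0398), at a list median of -0.19, and of 18 RNA polymerase I and III genes 1, RPC11 (-0.84 ± 0.21, adjusted p = 0.0495, and 0.0522 with the slide as a block), at -0.23. In both lists that is 1 gene, where 2.49% of all genes fell.

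Among nuclear genes of the mitochondrion, of 70 mitochondrial ribosomal protein genes 8 were lower and 0 higher, where 2.49% of all genes were lower. Their median was -0.26 (-0.20 on slide 1 and -0.32 on slide 2). MRPL50 read -1.64 and -2.21 in mixed against -0.84 and -0.84 in control (-1.09 ± 0.17, adjusted p = 0.0233). The groups did not overlap. MRP4 (-0.63 ± 0.14, adjusted p = 0.0367) and MRPL17 (-0.62 ± 0.15, adjusted p = 0.0439) were also among the 8. At the other end RSM7 (0.57) and MRP20 (0.51), chosen after their values were seen, were positive and did not pass.

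All 18 citric acid cycle genes had a negative difference, with a median of -0.28 (-0.31 and -0.32 on the slides), 11 lay lower on both mixed arrays (32.7% of all genes did), and 3 passed (2.49% of all genes fell). SDH3, a membrane anchor of succinate dehydrogenase, read 0.80 and 0.58 in mixed against 1.51 and 1.73 in control (-0.93 ± 0.17, adjusted p = 0.0261). The other anchor, SDH4, read 2.26 and 2.10 against 2.94 and 2.73 (-0.65 ± 0.14, adjusted p = 0.0363), and the fumarase gene FUM1 -0.01 and -0.09 against 0.62 and 0.46 (-0.59 ± 0.13, adjusted p = 0.0372). These neighbouring steps of the cycle stood apart between the groups on all 4 arrays. The aconitase gene ACO1, chosen after its value was seen, had as large a difference (-0.92 ± 0.29) with a wider spread and did not pass (adjusted p = 0.0836).

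Of 37 oxidative phosphorylation genes 4 were lower and 0 higher, and all 4 encode subunits of the ATP synthase: ATP20 (-0.87 ± 0.16, adjusted p = 0.0265), ATP4 (-0.75 ± 0.14, adjusted p = 0.0251), TIM11 (-0.74 ± 0.17, adjusted p = 0.0398) and, chosen after its value was seen, ATP16 (-0.72 ± 0.13, adjusted p = 0.0260). ATP20 read -0.27 and -0.26 in mixed against 0.65 and 0.57 in control, with no overlap. Over all genes 1.91% were called higher and 2.49% lower. The list median was -0.21, and members of the bc1 complex lay on the positive side, with QCR6 at 0.57 and QCR8 at 0.33 (chosen after their values were seen, neither passing). Of the 8 mitochondrially encoded genes 7 had a positive difference, at a list median of 0.39, with 0 passing. On both mixed arrays 2 of them lay higher than on both control arrays, where 23.6% of all genes did so. OLI1, the membrane ring subunit of the ATP synthase, read 7.76 and 7.41 against 7.38 and 6.89 (0.45 ± 0.19, adjusted p = 0.167) and VAR1 0.33 (adjusted p = 0.457). The outer membrane protein gene OM14 was lower (0.92 and 0.67 against 1.96 and 1.87, -1.12 ± 0.20, adjusted p = 0.0251), and TIM18, the 1 call among 30 mitochondrial import genes, was higher (-0.66 and -0.03 against -1.09 and -1.43, 0.92 ± 0.23, adjusted p = 0.0493, and 0.0522 with the slide as a block). That list had a median of -0.18 and 0 falls. The 8, 3 and 4 falls in mitochondrial ribosomal proteins, the citric acid cycle and oxidative phosphorylation were 0 with spike-in scaling and without either control array, and 1, 0 and 0 without the second mixed array.

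**Figure D3:**
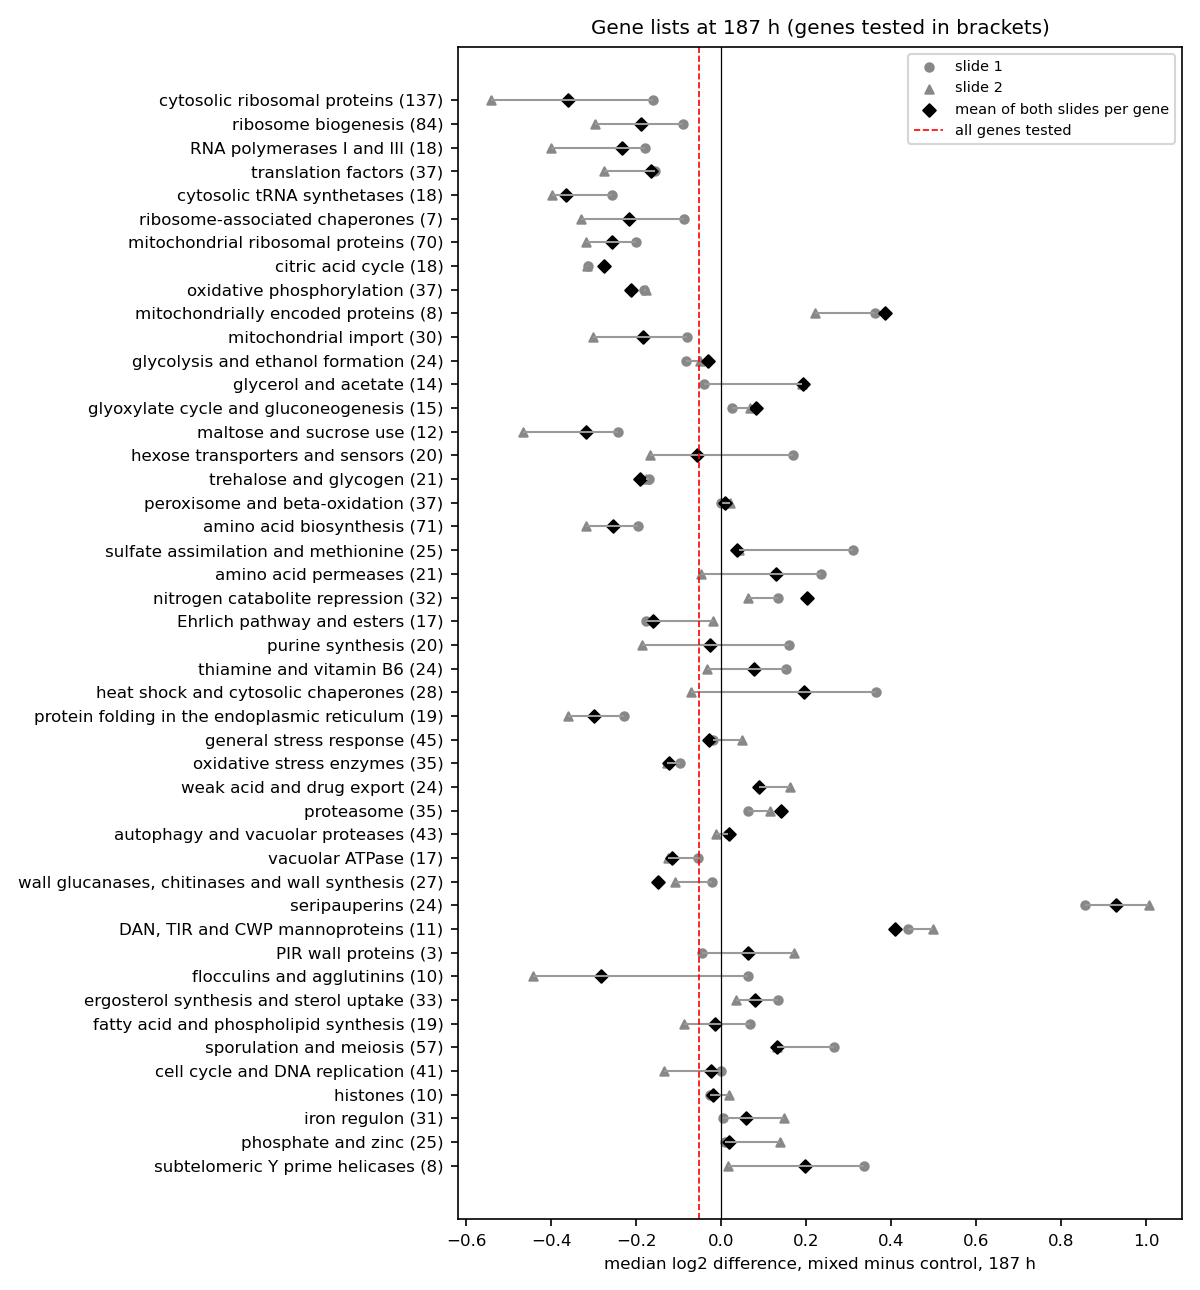
Median difference, mixed minus control at 187 h on the log2 scale, for 46 gene lists (number tested in brackets), on slide 1 (circles), slide 2 (triangles) and with both slides averaged per gene (diamonds). The dashed line marks the median of all genes, -0.05. The seripauperins lie farthest right at 0.93, and the cytosolic ribosomal proteins and tRNA synthetases farthest left at -0.36 and -0.37.

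Sugar and ethanol genes changed one by one, where 1.91% of all genes were called higher and 2.49% lower. MAL32, a maltase, read -4.73 and -5.51 in mixed against -3.01 and -3.85 in control, 3.23-fold lower (-1.69 ± 0.41, adjusted p = 0.0461). It was the largest fall of the 152. Its near-identical copy MAL12, chosen after its value was seen, had a difference of -1.32 and did not pass (adjusted p = 0.0662, but 0.0256 with the slide as a block), so the copies cannot be told apart by these probes. The list of 12 maltose and sucrose genes had a median of -0.32, with -0.24 and -0.47 on the slides. DOG1 and DOG2, sugar phosphate phosphatases and also close copies, were lower by -1.06 and -1.07 (adjusted p = 0.0365 and 0.0439, chosen after their values were seen). HXT2, a high-affinity glucose transporter, read -3.14 and -3.21 against -3.79 and -4.02 (0.73 ± 0.13, adjusted p = 0.0251). It alone passed among 20 hexose transporters and sensors. Several of the others had larger differences without passing, among them HXT16 (-1.58, adjusted p = 0.0718), HXT17 (-1.51, adjusted p = 0.0832) and HXT5 (1.00, adjusted p = 0.0914), chosen after their values were seen. Glycolysis and ethanol formation had 1 fall in 24 genes, the alcohol dehydrogenase gene ADH5 (0.48 and -0.18 against 1.38 and 1.10, -1.09 ± 0.25, adjusted p = 0.0414), at a median of -0.03. The acetyl-CoA synthetase gene ACS1 was higher (1.31 and 1.42 against 0.72 and 0.69, 0.66 ± 0.14, adjusted p = 0.0367), and the glycerol kinase gene GUT1 lower (-0.90 ± 0.21, adjusted p = 0.0439). INM1, an inositol monophosphatase (-1.10 ± 0.24, adjusted p = 0.0367), and REE1, a gene known in the regulation of enolase (-1.13 ± 0.23, adjusted p = 0.0321), were among the 12 largest falls. No gene of trehalose and glycogen storage passed, with 16 of 21 negative, a median of -0.19 and the smallest p at GLG1 (-0.67, adjusted p = 0.0611).

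Of 71 amino acid synthesis genes 5 were lower and 0 higher, at a median of -0.25, where 2.49% of all genes were called lower. The 5 were LEU2, ARO4, ARO2 and, outside the 3 largest, ARO1 (-0.65) and PRO2 (-0.54). LEU2, an enzyme of leucine synthesis, read 3.12 and 2.97 in mixed against 3.90 and 3.96 in control (-0.89 ± 0.14, adjusted p = 0.0233), with no overlap. ARO4, ARO1 and ARO2 act in the shared pathway to aromatic amino acids; ARO4 read -0.18 and -0.42 against 0.57 and 0.70 (-0.94 ± 0.19, adjusted p = 0.0321) and ARO2 -0.69 and -1.14 against -0.11 and -0.09 (-0.81 ± 0.16, adjusted p = 0.0314). The count of 5 was 0 with spike-in scaling and without either control array, 11 without the first mixed array and 1 without the second.

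Some sulfur and uptake genes were higher, where 1.91% of all genes were called higher and 2.49% lower. CYS3, which makes cysteine from cystathionine, read 1.74 and 1.81 against 0.68 and 0.90 (0.98 ± 0.25, adjusted p = 0.0495, and 0.0522 with the slide as a block). MET28, a cofactor of the sulfur activator Met4, read 1.84 and 2.12 against 1.22 and 1.27 (0.74 ± 0.15, adjusted p = 0.0341), and the methionine permease gene MUP1 -1.08 and -0.85 against -1.79 and -1.69 (0.78 ± 0.18, adjusted p = 0.0439). All 3 stood apart between the groups. MET4 itself (0.77, adjusted p = 0.0367) and MET30, part of the ubiquitin ligase that acts on Met4 (0.59, adjusted p = 0.0314), were higher too, both chosen after their values were seen. SAM4, which makes methionine from homocysteine, was lower (-0.99 ± 0.16, adjusted p = 0.0246), and the list of 25 sulfate and methionine genes as a whole had a median of 0.04 with 2 rises and 1 fall. UGA4, the permease for 4-aminobutyrate and a gene under nitrogen catabolite repression, read -1.80 and -1.73 against -3.10 and -2.83, 2.30-fold higher (1.20 ± 0.16, adjusted p = 0.0229). Of the 32 genes under nitrogen catabolite repression it was the 1 that passed, at a list median of 0.20. The list of 21 amino acid permeases had UGA4 and MUP1 as its rises and a median of 0.13. In purine synthesis the bifunctional enzyme gene ADE16 was lower (-0.67 ± 0.13, adjusted p = 0.0329), 1 of 20.

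Of 43 autophagy and vacuolar protease genes 3 were higher and 1 lower, where 1.91% of all genes were called higher and 2.49% lower. The list split into 22 positive and 21 negative differences, at a median of 0.02. ATG8, whose product is joined to the autophagosome membrane, read 3.19 and 3.1 in mixed against 2.27 and 2.27 in control, 1.84-fold higher (0.88 ± 0.13, adjusted p = 0.0233). ATG20, a sorting nexin, read -0.90 and -0.66 against -1.62 and -1.62 (0.84 ± 0.14, adjusted p = 0.0244), and ATG26, a sterol glucosyltransferase, was higher by 0.53 ± 0.12 (adjusted p = 0.0414). ATG12, a ubiquitin-like protein needed to join Atg8 to lipid, was the fall (-4.37 and -4.41 against -3.77 and -3.87, -0.57 ± 0.11, adjusted p = 0.0290). None of the 4 overlapped between the groups. The endosomal syntaxin gene PEP12 (0.87, adjusted p = 0.0265), the endosomal Rab gene YPT53 (0.91, adjusted p = 0.0246) and the syntaxin gene TLG2 (0.59, adjusted p = 0.0344) were also higher, chosen after their values were seen. Of 35 proteasome genes the base subunit gene RPN1 passed (1.45 and 1.37 against 0.79 and 0.69, 0.67 ± 0.13, adjusted p = 0.0321), with 23 of 35 positive and a median of 0.14, and of 17 vacuolar ATPase genes none did, although VMA3 (-0.50) and VMA11 (-0.46) did with the slide as a block (adjusted p = 0.0457 and 0.0455).

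Stress genes differed singly, where 1.91% of all genes were called higher and 2.49% lower. YHB1, a flavohemoglobin that detoxifies nitric oxide, read -0.37 and -1.02 in mixed against 0.86 and 0.34 in control, 2.45-fold lower (-1.29 ± 0.27, adjusted p = 0.0344), with no overlap. The glutaredoxin gene GRX2 was also lower (-0.67 ± 0.17, adjusted p = 0.0495, and 0.0522 with the slide as a block), 2 falls in 35 oxidative stress genes at a median of -0.12. Of 28 heat shock and chaperone genes APJ1, a J-protein, passed (3.02 and 3.29 against 1.90 and 2.34, 1.04 ± 0.25, adjusted p = 0.0468, and 0.0504 with the slide as a block). The list median was 0.20, with 0.36 on slide 1 and -0.07 on slide 2. Of 45 general stress response genes none passed, with PHM7 (0.59, adjusted p = 0.0543) and the polyubiquitin gene UBI4 (0.65, adjusted p = 0.0659) nearest. In the folding pathway of the endoplasmic reticulum 15 of 19 genes were negative, where 3389 of all 6114 were, at a list median of -0.30. USA1, a scaffold of a ubiquitin ligase for misfolded proteins, was lower (-3.63 and -4.34 against -2.80 and -2.93, -1.12 ± 0.25, adjusted p = 0.0398), as was the prolyl isomerase gene FPR2 (-0.78 ± 0.18, adjusted p = 0.0398), and YOS9, a lectin of the same quality control, was higher (0.65 ± 0.14, adjusted p = 0.0367). Among 24 weak acid and drug exporters none passed, and the polyamine exporter genes TPO2 (0.90, adjusted p = 0.0593) and TPO3 (0.64, adjusted p = 0.0683) were nearest.

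The cell surface differed most evenly in the seripauperins. All 24 genes of the list lay higher on both mixed arrays than on both control arrays, where 23.6% of all genes did so. Their differences ran from 0.26 at PAU11 to 1.52 at PAU5, and the median was 0.93 (0.86 on slide 1 and 1.01 on slide 2). PAU5 read 3.08 and 3.68 in mixed against 1.51 and 2.20 in control, 2.87-fold (1.52 ± 0.59), and PAU13 2.80 and 3.46 against 1.82 and 2.37 (1.04 ± 0.43). Neither passed (adjusted p = 0.132 and 0.161), and no other member did. The members share long stretches of sequence, so their agreement is not that of 24 separate measurements. At the earlier times the list medians were 1.58 at 22 h, 1.17 at 92 h and 0.81 at 144 h. The 22 h value rests on slide 2, at 2.52, while slide 1 was at 0.68. Of 11 DAN, TIR and CWP mannoprotein genes, which include PAU23 and PAU24, none passed, at a median of 0.41, with TIR2 at 1.02 and TIR3 at 0.93 (adjusted p = 0.0887 and 0.0684, but 0.0445 and 0.0469 with the slide as a block) and CWP2 at -0.57. FLO11, the adhesin of biofilms and invasive growth, read -2.76 and -3.02 against -1.55 and -1.43 (-1.40 ± 0.44) without passing (adjusted p = 0.0872), although its groups did not overlap. CHS1, the chitin synthase of cell separation, was higher (1.16 and 1.51 against 0.33 and 0.68, 0.83 ± 0.18, adjusted p = 0.0367).

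**Figure D4:**
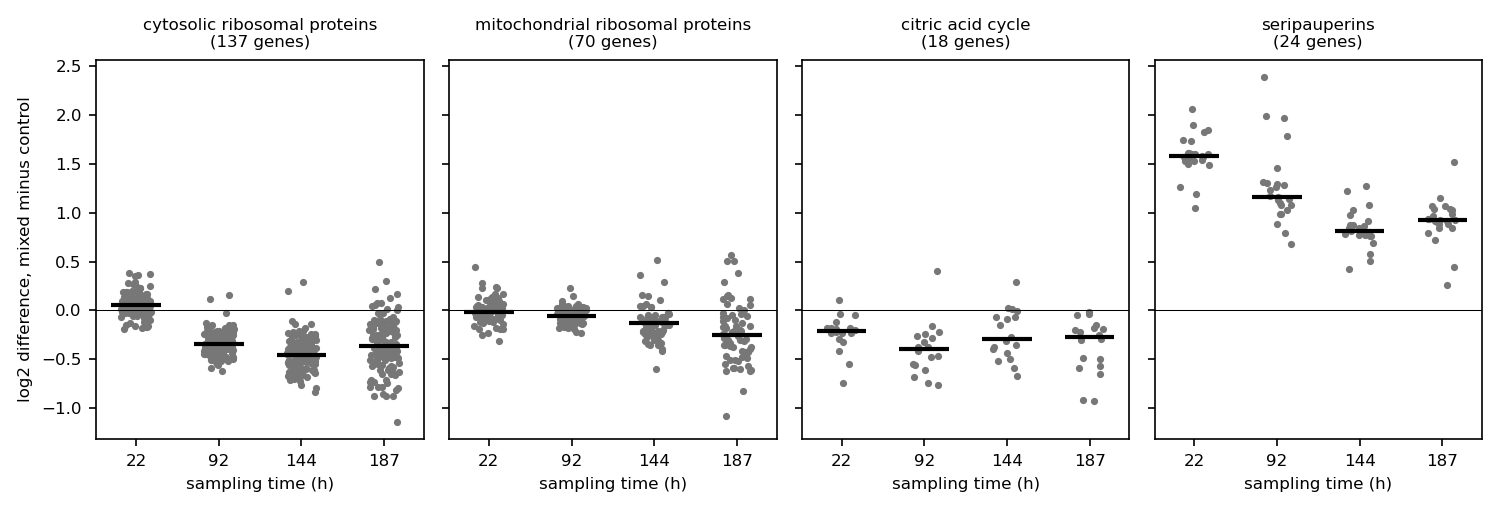
Difference of each gene, mixed minus control on the log2 scale (vertical axis), at the 4 sampling times for 4 gene lists, with a bar at the median. Points are genes; horizontal scatter within a time has no meaning. The cytosolic ribosomal protein median was 0.05 at 22 h and -0.36 at 187 h, and the seripauperin median 1.58 at 22 h and 0.93 at 187 h.

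In lipid synthesis ELO3, an elongase for very long chain fatty acids, was lower (-2.22 and -2.64 against -1.61 and -1.51, -0.87 ± 0.22, adjusted p = 0.0495, and 0.0522 with the slide as a block), the 1 call in 19 genes. Over all genes 1.91% were called higher and 2.49% lower. None of 33 ergosterol genes passed, at a median of 0.08. The sterol regulator gene UPC2 (0.59 and 0.55 against -0.24 and -0.07, 0.73 ± 0.23, adjusted p = 0.0885) and the sterol importer gene AUS1 (1.33 ± 0.50, adjusted p = 0.124, but 0.0250 with the slide as a block) came nearest. IZH4, of a family linked to zinc and sterol metabolism, read 3.67 and 3.96 against 2.53 and 2.92 (1.09 ± 0.19, adjusted p = 0.0251) and was the 1 call in 25 phosphate and zinc genes. Of 31 iron regulon genes none passed, although FIT1 (-0.59) did with the slide as a block (adjusted p = 0.0424).

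Of 57 sporulation and meiosis genes 4 were higher and 0 lower, at a median of 0.13, where 1.91% of all genes were called higher. The list is weakly expressed, with a median level of -3.87 in control, and of 640 dim probes (level under -5 at the other times) 4.06% were called higher, so the part of low signal in its rises was not tested. IME2, the kinase that drives entry into meiosis, read -1.78 and -1.84 in mixed against -3.27 and -3.28 in control, 2.77-fold higher (1.47 ± 0.25, adjusted p = 0.0246). The arrays of each kind lay within 0.06 of each other. SPR28, a septin of sporulating cells, read -2.23 and -1.99 against -3.19 and -3.17 (1.07 ± 0.17, adjusted p = 0.0233), and SPO1, a phospholipase-like gene of spindle pole formation in meiosis, -2.40 and -3.27 against -3.78 and -3.97 (1.04 ± 0.22, adjusted p = 0.0367). MND1, needed for strand exchange between homologues, was the fourth (0.78, adjusted p = 0.0495). The list was not uniform: IME1, the activator upstream of IME2, was at -0.53 and SPO74 at -2.02, both chosen after their values were seen and neither passing. With the slide as a block 5 members were higher and 1, OSW1 (-1.06), lower. In the cell cycle the replication genes RFC5 (-0.72 ± 0.16, adjusted p = 0.0372 by limma) and RNR1 (-0.63 ± 0.14, adjusted p = 0.0413) were lower. That is 2 of 41 genes, where 2.49% of all genes were lower, at a list median of -0.02. No histone gene passed.

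The largest rises were in weakly expressed open reading frames. YEL014C was well above background on both mixed arrays and on none of the other 14, and its difference is a bound of at least 2.97-fold (means of -7.25 and -9.89, adjusted p = 0.0229). YER119C-A had the same pattern, at least 3.78-fold (means of -6.83 and -9.30, adjusted p = 0.0367), where the bound sets the mixed mean against the dimmest reliably detected probe of each control array. These 2, YNL028W and YJL015C would not have passed the filter without the mixed 187 h arrays, where they are high, so their p is no support. YJL015C was well above background on 1 of those arrays and on 1 of the 12 arrays of other times. The other 113 of the 117 rises did not depend on that. YNL120C read -3.72 and -2.66 in mixed against -6.12 and -5.01 in control (2.37 ± 0.47, adjusted p = 0.0319), and YNL028W -5.87 and -6.86 against -7.51 and -9.57 (2.17 ± 0.54, adjusted p = 0.0493). Among genes with a symbol, BIL2 read -4.08 and -3.88 against -5.74 and -5.89 (1.84 ± 0.22, adjusted p = 0.0229), SRL4 -2.74 and -4.38 against -5.13 and -5.39 (1.70 ± 0.39, adjusted p = 0.0398) and BRP1 -4.42 and -5.36 against -6.45 and -6.30 (1.48 ± 0.26, adjusted p = 0.0251). YMR245W (1.84), YGL149W (1.83), YIL141W (1.58), YGR139W (1.57) and YOL035C (1.52) completed the 12. Of the 12, YER119C-A, YNL120C, YNL028W, YMR245W, YIL141W, YGR139W and YOL035C are not in the gene annotation used. Dim probes shifted as a class: the 640 probes whose mean level on the other 12 arrays was under -5 had a median difference of 0.33, with 0.52 on slide 1 and 0.07 on slide 2, 26 rises and 2 falls, and 316 of them are not in the annotation. The other 5474 had a median of -0.08, with 91 rises and 150 falls. The part of low signal in the rises of dim open reading frames was not tested.

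Falls with little known function were also among the 12 largest. YBR174C, not in the annotation, read -5.12 and -5.65 in mixed against -3.91 and -4.39 in control (-1.23 ± 0.24, adjusted p = 0.0303). YFR018C read -2.58 and -2.99 against -1.49 and -1.73 (-1.17 ± 0.17, adjusted p = 0.0233), and YNR061C -3.33 and -3.96 against -2.48 and -2.58 (-1.12 ± 0.20, adjusted p = 0.0251). In each the mixed arrays lay below the control arrays.

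The differences at 187 h were set against those at the earlier times. No gene's 187 h difference departed from its 144 h difference past the test (0.0% called by limma, with 152 at an unadjusted p below 0.05), nor from the mean of the 3 earlier differences (0.0% called by limma, with 663 at an unadjusted p below 0.05). The smallest adjusted p in the latter was 0.232, at YEL014C (tested only because it was high on the mixed 187 h arrays), at SRB7, a subunit of the Mediator complex, and at URA10, an orotate phosphoribosyltransferase of pyrimidine synthesis. SRB7 differed by 1.22 at 187 h and by -0.20, -0.08 and -0.10 at 144 h, 92 h and 22 h. URA10 differed by -0.66 at 187 h and by -0.19, -0.04 and 0.52. SHE1, a microtubule-binding protein, followed with 1.34 at 187 h and 0.32 at 144 h (adjusted p = 0.307 for the contrast with the earlier mean). With 37 genes called against 144 h and 51 against the earlier mean when the second mixed array was left out, 2 and 12 with spike-in scaling, 0 and 3 with quantile normalization, and 0 and 1 without the first control array, these counts too depend on single arrays and on scale.

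The 144 h arrays are other samples, possibly of the same vessels, and there limma called 0 genes, with 606 at an unadjusted p below 0.05. Of the 269 genes, 261 had at 144 h the sign they had at 187 h (97.0%, against 78.1% of all 6114 genes). At 92 h it was 230 (85.5%, against 64.4%) and at 22 h 138 (51.3%, against 53.8%). At 144 h the 117 rises had a median of 0.37 and the 152 falls one of -0.37. The genes were chosen for their differences at 187 h, so smaller sizes at any other time follow from that choice. The choice also favoured a small spread, estimated over the arrays of all times. All 6114 genes were not matched to the 269 in size or spread, so how much of the higher shares follows from the choice was not tested. Mixed and control lay in separate slide rows at the earlier times too, so shared signs cannot tell kind from place on the slide. By name, IME2 differed by 1.46 at 144 h and 1.47 at 187 h and MUP1 by 1.07 and 0.78. SSB2 differed by -0.91 and -1.17, RPL22B by -0.67 and -1.14, and OM14 by -0.43 and -1.12. The ribosomal protein median was -0.46 at 144 h and -0.34 at 92 h, that of the mitochondrial ribosomal proteins -0.13 and -0.06, and that of the citric acid cycle -0.29 and -0.40.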

How the data were processed

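Total RNA (200 ng, with spike-in RNA) was hybridised to 1-colour Agilent arrays, per the labels' protocols. The deposited scanner files held, per the file headers, the processed intensity of each spot, from Feature Extraction 10.7.3.1, for 6256 gene probes spotted 2 times each. The authors' deposited log2 table followed these values plus 1 constant per array, with centring set per time by a rule not given in the sources used here, and served as an alternative only.

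Log2 processed intensity was averaged over spots after 50 outlier spots and the dark area (rows 60 to 130, columns 31 to 52, 1243 spots) were left out. This removed 68 probes and left 1107 with 1 spot. Each array's 75th percentile was subtracted. Probes well above background on at least 2 of the 16 arrays were kept, and 6114 were tested, 74 being too dim. A limma model with 1 mean per group over 16 arrays had 8 residual degrees of freedom (3.20 prior), with Benjamini-Hochberg adjustment and a threshold of 0.05. The number of arrays limits the precision. A gene annotation matched 5756 probe identifiers and left 500 unmatched. The compared groups, the 47 gene lists and the tests were chosen with earlier results of these data known. Some list members had no tested probe, mostly in the dark area.

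Named genes were up to 12 largest differences per direction among called genes with 1 sign on both slides, no overlap and signal well above background in at least 1 group; up to 3 called members per list and direction, or 2 of smallest p; and up to 5 per direction for each difference between times. The deviations of same-numbered mixed and control arrays from their group means correlated at -0.46, 0.22, 0.24 and 0.22 at the 4 times. The numbers were therefore not taken as pairs of vessels. Since the number is also the slide, it was fitted as a block in an alternative. The fitting procedure was tested on simulated data. The alternatives were other scalings, normexp with quantile normalization on the median spot signal, the deposited table, other filters, the dark area kept, replicate and vessel blocks, a mean trend in the variance, single arrays left out, and, chosen after seeing the data, removal of local brightness and a wider area left out. The tools were limma 3.58.1 under R 4.3.3, and matplotlib 3.10.9, numpy 2.4.6 and pandas 2.3.3 under Python 3.11.15.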

Additional observations from a re-analysis of the deposited data

Results flagged for a closer look

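In 5 gene lists the median difference on both slides had one sign at 187 h and the other sign on both slides at an earlier time. In each of them the difference between times was not tested for the list, and 2 slides that share a sign are a weak criterion over 47 lists and 3 earlier times. The mitochondrially encoded genes were at 0.36 and 0.22 at 187 h (slides 1 and 2) against -0.01 and -0.23 at 144 h. The oxidative stress enzymes were at -0.10 and -0.13 against 0.24 and 0.27 at 22 h. The genes under nitrogen catabolite repression were at 0.13 and 0.06 against -0.20 and -0.44 at 22 h and -0.10 and -0.35 at 92 h. Glycolysis and ethanol formation was at -0.08 and -0.05 against 0.10 and 0.10 at 22 h, and the phosphate and zinc genes at 0.01 and 0.14 against -0.06 and -0.01 at 22 h.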

How the results depend on the processing

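Counts of called genes at 187 h were within 1.5 times of 269 under array medians, quantile normalization, the deposited table, both other filters, the replicate and vessel blocks, the variance trend, local brightness and the wider area. They were 33 with spike-in scaling, 406 with normexp and quantile normalization, 450 with the dark area kept and 0 with only the 187 h arrays, and ran from 1 to 577 with single arrays left out. Of the 83 named genes called, 78 were still called with quantile normalization, 74 with local brightness removed, 9 with spike-in scaling, 24 without the second mixed array and 1 each without the first or the second control array, and none turned its sign under any setting run. The kept signs follow largely from the choice of called genes, which had 1 sign on both slides, and are no separate support. With the dark area kept, 361 of 5020 probes with both spots outside it were called, against 224 with the area left out. Their median difference was -0.11 against -0.05. The count thus moved also among probes with no spot in the area, and the cause was not tested. The replicate block, which is also the slide, called 326 genes (136 higher, 190 lower) and 77 of the 83. The 6 lost (RPC11, TIM18, CYS3, APJ1, GRX2 and ELO3) had an adjusted p of 0.0504 to 0.0522. The proteasome (with RPT2) and the glyoxylate cycle and gluconeogenesis list went from 1 to 2 genes higher. Purine synthesis (with IMD3) and maltose and sucrose use (with MAL12) went from 1 to 2 genes lower. The numbers mark the slide and are not known to mark a vessel. Genes differing from 144 h were 2 with spike-in scaling and 0 to 37 with single arrays left out; genes differing from the earlier mean were 3 with quantile normalization, 12 with spike-in scaling and 0 to 51.

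List medians kept their sign in the 5 lists that follow. Scaled to array medians they were -0.17 for mitochondrial ribosomal proteins, -0.19 for the citric acid cycle and -0.13 for oxidative phosphorylation. With normexp and quantile normalization these were -0.16, -0.28 and -0.23. For the citric acid cycle and oxidative phosphorylation the values were -0.27 and -0.23 with quantile normalization, -0.30 and -0.27 with spike-in scaling, -0.21 and -0.18 with the deposited table, -0.27 and -0.24 with the dark area kept, -0.26 and -0.23 both with the filter on all arrays and with only the 187 h arrays, -0.24 and -0.20 with local brightness removed, and -0.28 and -0.18 with the wider area. With single arrays left out the medians ran from -0.48 to -0.25 for cytosolic ribosomal proteins, -0.36 to -0.16 for mitochondrial ones, -0.36 to -0.23 for the citric acid cycle, -0.25 to -0.12 for oxidative phosphorylation and 0.64 to 1.24 for seripauperins. Of all 47 lists, 7 turned sign under array medians, 5 with spike-in scaling, 6 with the dark area kept and 5 to 10 with 1 array left out. Removal of local brightness and the wider area were chosen after seeing the data. Signal over background limits the dim probes: 74 were too dim to test. A lone array in a group was assumed to vary like the other groups.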
